A study of Mus musculus with 23 samples.

Results

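Ptk7 and 9 other genes of the planar polarity arm of Wnt signaling were followed in mammary tumors of mice in which IL-38 was inhibited. The 10 genes were given by symbol and matched to the gene identifiers of the deposited tables, where each had 1 row among 47643. They were Ptk7, Ror1, Ror2, Ryk, Vangl1, Vangl2, Celsr1, Celsr2, Celsr3 and Prickle1. Ptk7 was selected on its normalized counts, which had been seen to be higher in these same tumors when IL-38 was inhibited, so its values are a description and carry no test.

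The tumors came from female PyMT mice on a C57BL/6 background, which carry the polyoma virus middle T oncoprotein as a transgene and develop mammary carcinoma on their own. RNA of dissociated tumors was sequenced from its 3′ ends in 23 libraries. In the neutralization experiment, PyMT WT mice received 100 µg of a human IgG1 isotype control (5 libraries) or of anti-IL-38 antibody (6 libraries) at weekly intervals over 5 weeks, once their first tumor measured 0.6 cm. In the second experiment, treatment ran for 5 weeks from 13 weeks of age, with a first dose of 500 µg and 200 µg later on. Here PyMT WT mice received IgG (4 libraries), and PyMT IL-38 KO mice, a constitutive knockout, received IgG (4 libraries) or anti-γδTCR (4 libraries). The anti-γδTCR antibody blocks signaling through the receptor of γδ T cells. The paper reports that it lowered γδ T-cell numbers in the tumors, presumably by less proliferation and not by depletion. All groups thus carried the PyMT transgene and received an antibody, and no group of WT mice with anti-γδTCR was analysed here. The second experiment started at a fixed age and the neutralization experiment at a fixed tumor size.

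Planar cell polarity is the alignment of cells within the plane of a tissue. It is set up by membrane complexes in which the atypical cadherins Celsr1 to Celsr3 bridge neighboring cells, while Vangl and Prickle proteins gather on one side of the cell and Frizzled and Dishevelled proteins on the other. Ptk7, Ror1, Ror2 and Ryk are single-pass membrane proteins that bind Wnt ligands or Frizzled receptors beside this core. Ptk7 and Ryk have kinase domains without catalytic activity, and Ror1 and Ror2 are receptors for Wnt5a. In the mammary gland these genes are used by the ductal epithelium, by basal cells and by the stroma.

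Sequencing depth was 6273049 to 15879164 reads on genes per library. In 5 libraries, IL-38 KO + IgG replicate 4 and all 4 of IL-38 KO + anti-γδTCR, processed pseudogenes took 1.38 to 2.07% of the reads, while they took 0.127 to 0.230% in each of the remaining 18. These 5 also had the fewest reads, at most 8794202, and the sum of 6 macrophage markers was 661 to 914 CPM (recovered reads relative to the TMM-adjusted library size) in them and 1345 CPM or more in the other 18. All of one arm of the γδ TCR comparison therefore stands apart from 3 of its 4 controls, and the treatment and this difference cannot be told apart there. Il1f10, which encodes IL-38, had 0 reads in all 23 libraries, which does not check the knockout. Markers of luminal epithelium, the lineage of these tumors, were all detected in every library.

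Ptk7 (ENSMUSG00000023972) is shown with the 250 bases before its annotated start, because it leads the list and because TGGGAA, the core sequence bound by the Notch factor CSL, lies there. The sequence is the RefSeq minus strand of GRCm38.p6 at chr17:46629505-46629754, with TGGGAA in capitals, and was read from a different build than the GRCm39 of the submitters' processing notes.

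Ptk7 promoter: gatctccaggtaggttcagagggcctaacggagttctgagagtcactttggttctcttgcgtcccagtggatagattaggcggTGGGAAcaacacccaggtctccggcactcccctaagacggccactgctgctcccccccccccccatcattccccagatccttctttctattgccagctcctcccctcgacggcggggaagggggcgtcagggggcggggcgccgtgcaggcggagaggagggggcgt

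The match starts 167 bases before the start of the gene, and the 250 bases hold 14 CG dinucleotides. Searched on both strands in windows of 300 bases around gene starts, TGGGAA occurred in 25.56% of 32851 windows, and in 2 of the 9 windows matched to the 10 genes, those of Ptk7 and Vangl2. CTTTGAA, a core sequence of TCF/LEF factors, occurred in 5.135% of all windows and in 0 of the 9. Prickle1 had 2 windows, and Celsr1 and Vangl1 were not matched.

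Ptk7 was higher in most tumors with IL-38 inhibited than in the controls of either experiment. In normalized counts of the 19-library table, isotype control tumors held 648, 235, 778, 405 and 490, and anti-IL-38 tumors ranged from 598 to 1813 with 821, 928, 1152 and 1626 between them. WT tumors held 320, 370, 636 and 740 and IL-38 KO tumors 714, 954, 1558 and 1007. Of the 10 tumors with IL-38 inhibited, 8 lay above all 9 controls, and the exceptions were anti-IL-38 replicate 5 and IL-38 KO + IgG replicate 1. All 10 lay above the median of the controls.

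Ptk7 averaged 1117 ± 413 normalized counts (SD, n = 10) in tumors with IL-38 neutralized or knocked out and 513 ± 194 (SD, n = 9) in their controls, a log2 fold change of 1.13 (SE 0.23). With the antibody it was 1156 ± 475 (SD, n = 6) against 511 ± 211 (SD, n = 5), a log2 fold change of 1.19 (SE 0.32). With the knockout it was 1058 ± 357 (SD, n = 4) against 517 ± 204 (SD, n = 4), a log2 fold change of 1.06 (SE 0.30). Without IL-38 KO + IgG replicate 4 the difference from WT was 1.07.

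In IL-38 KO tumors under γδ TCR blockade, Ptk7 was lower in 3 of 4 tumors than in all controls. In the 8-library table, which was scaled on its own, IL-38 KO tumors with IgG held 536, 723, 1203 and 788 normalized counts and those with anti-γδTCR 492, 466, 751 and 534. The log2 fold change was -0.50 (SE 0.24, 95% interval -1.04 to 0.04), and -0.49 without IL-38 KO + IgG replicate 4. Without replicate 3, the highest control, it was -0.29. Its controls are among the libraries in which Ptk7 was chosen as high, so this difference too is a description.

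On a common scale over all 23 libraries, Ptk7 levels were ordered as anti-IL-38 (91.9 ± 37.9 CPM, n = 6), IL-38 KO + IgG (85.6 ± 28.5, n = 4), IL-38 KO + anti-γδTCR (57.4 ± 13.2, n = 4), WT + IgG (41.6 ± 16.9, n = 4) and isotype control (40.2 ± 16.7, n = 5), each as mean ± SD. The ranges of all neighbors in this order overlapped. In bulk tumor RNA, fewer cells that express a gene and less of its RNA per cell cannot be told apart.

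**Figure D1:**
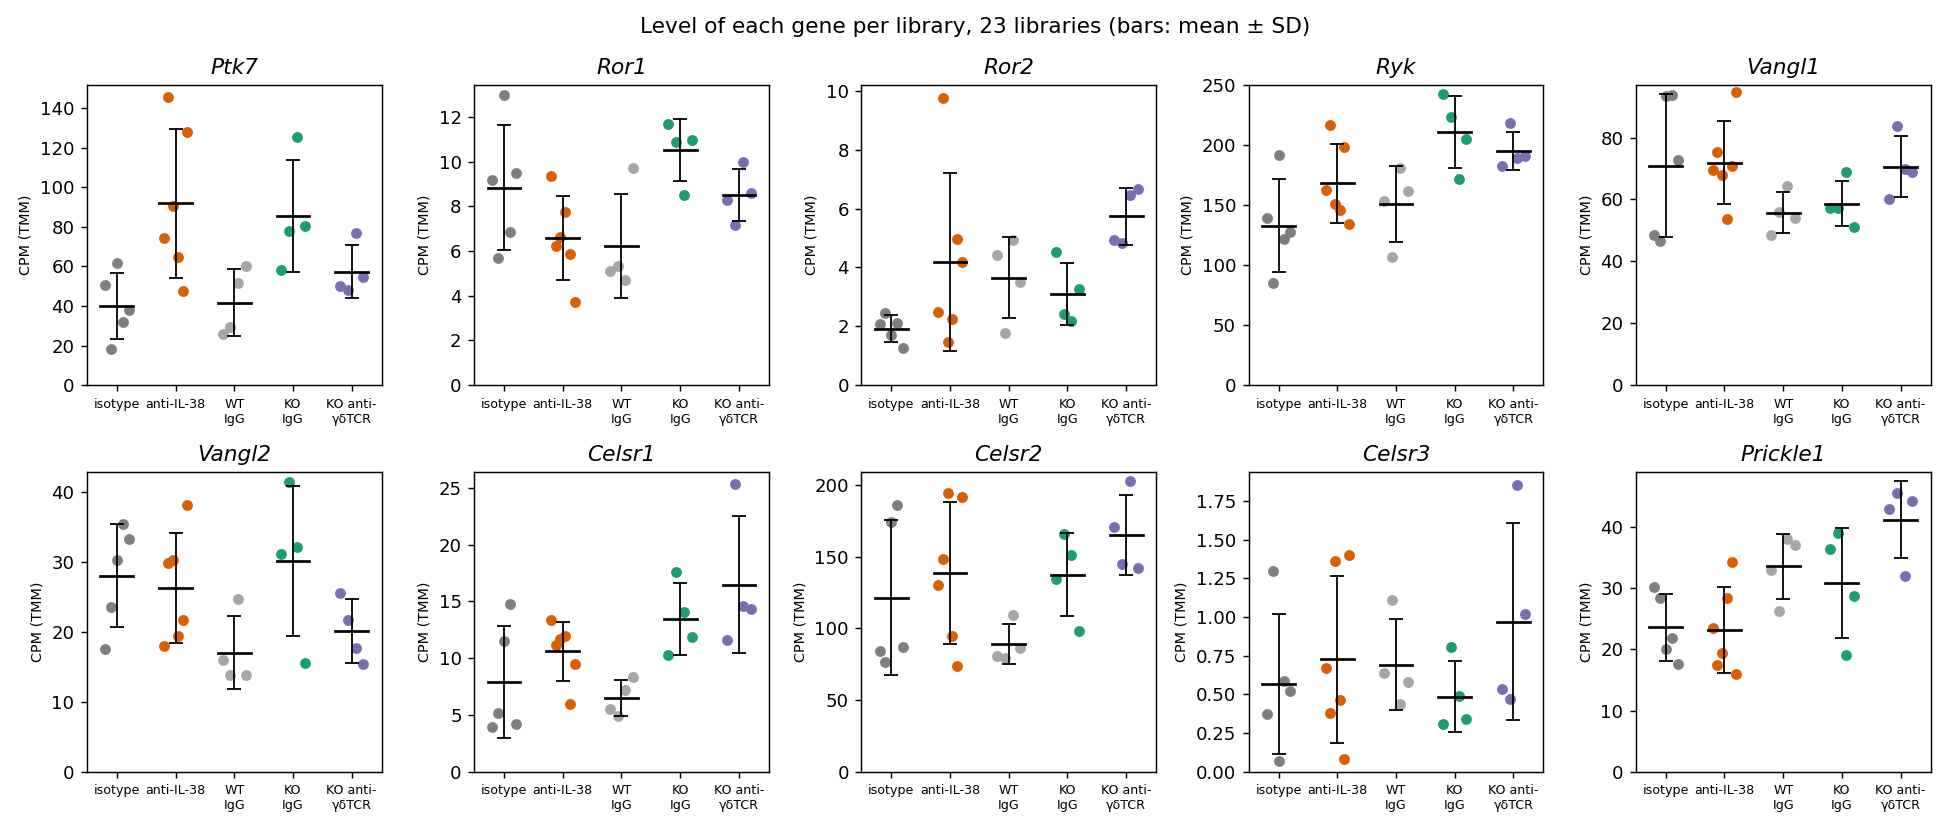
Level of each of the 10 genes in the 23 libraries, as CPM with TMM scaling on a linear axis from 0; each point is 1 library, and the horizontal line and bar are the mean and SD of the group. Ptk7 means are 91.9 and 85.6 CPM in the anti-IL-38 and IL-38 KO + IgG groups, 57.4 CPM with γδ TCR blockade added, and 41.6 and 40.2 CPM in the control groups, and each axis has its own range.

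Tm2d1 followed Ptk7 most closely over the 19 libraries, with a Pearson r of 0.90 on log2 values (Spearman rho 0.87) among 11719 genes. Selenof (r 0.88), Adpgk (0.87), Atad1 (0.87) and the Notch ligand gene Dll1 (0.86) came next. After the mean of each group was removed, Pdcd6 (0.87), Tm2d1 (0.84), Atad1 (0.82), Ttyh3 (0.82) and Selenof (0.80) were most like it. Tm2d1, Selenof and Atad1 were thus in both sets, whereas Dll1 was in the set that includes the differences between groups. These correlations share libraries and depth and are given without a test.

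The other 9 genes all passed the filter on low values, which asked for a mean of 5 normalized counts or more, in every comparison. None passed an adjusted p of 0.05 in limma in any of them. With IL-38 inhibited by either means, 0% of 16352 genes passed, and at an unadjusted p under 0.05 Ryk and Celsr1 were higher, 2 of 9, where 6.42% of all genes were. With the antibody alone 0% of 16002 genes passed, and 0 of the 9 had an unadjusted p under 0.05, against 10.5% of all genes. In IL-38 KO tumors 0.00604% of 16563 genes passed, and Ror1, Ryk, Vangl2, Celsr1 and Celsr2 were higher at an unadjusted p under 0.05, 5 of 9 against 6.73% of all genes. Under γδ TCR blockade 0% of 16481 genes passed, and Ror2 and Prickle1 were higher at an unadjusted p under 0.05, 2 of 9 against 12.7%. On the reads, edgeR called 0 of the 9 in all 4 comparisons, and DESeq2 called Celsr1 and Celsr2 in IL-38 KO tumors, 2 of 9 against 2.07% of the 14390 genes to which it gave an adjusted p. It called 0 of the 9 in the other comparisons, against 0.456% of genes with IL-38 inhibited, 0.47% with the antibody and 6.32% with blockade.

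The median log2 fold change of the 9 was 0.27 with IL-38 inhibited, 0.20 with the antibody, 0.49 with the knockout and 0.31 with γδ TCR blockade. Over all genes tested the median was 0.00, 0.00, 0.01 and 0.02. The first of these comparisons shares its tumors with the antibody and knockout comparisons, and the knockout and blockade comparisons share the IL-38 KO + IgG tumors. In IL-38 KO against WT tumors all 6 macrophage markers were lower (summed level 705 to 1810 against 1628 to 2170 CPM), 7 of 8 basal and myoepithelial markers were lower (236 to 408 against 360 to 762 CPM), and all 4 skeletal muscle markers were higher (9.04 to 316 against 1.04 to 57.8 CPM). The macrophage sum of 705 CPM was that of IL-38 KO + IgG replicate 4, and the other IL-38 KO tumors held 1345 to 1810 CPM. All 4 adipocyte markers were lower (8.53 to 51.7 against 30.7 to 72.0 CPM), as were 4 of 5 T cell markers (7.11 to 12.0001 against 10.5 to 17.2 CPM). With the antibody all 9 luminal markers were higher than with isotype control (2510 to 4449 against 1712 to 3589 CPM), and so were all 9 fibroblast markers (1722 to 4857 against 1238 to 4154 CPM). None of these markers passed an adjusted p of 0.05, and the part of these cells in the values of the 10 genes was not tested.

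**Figure D2:**
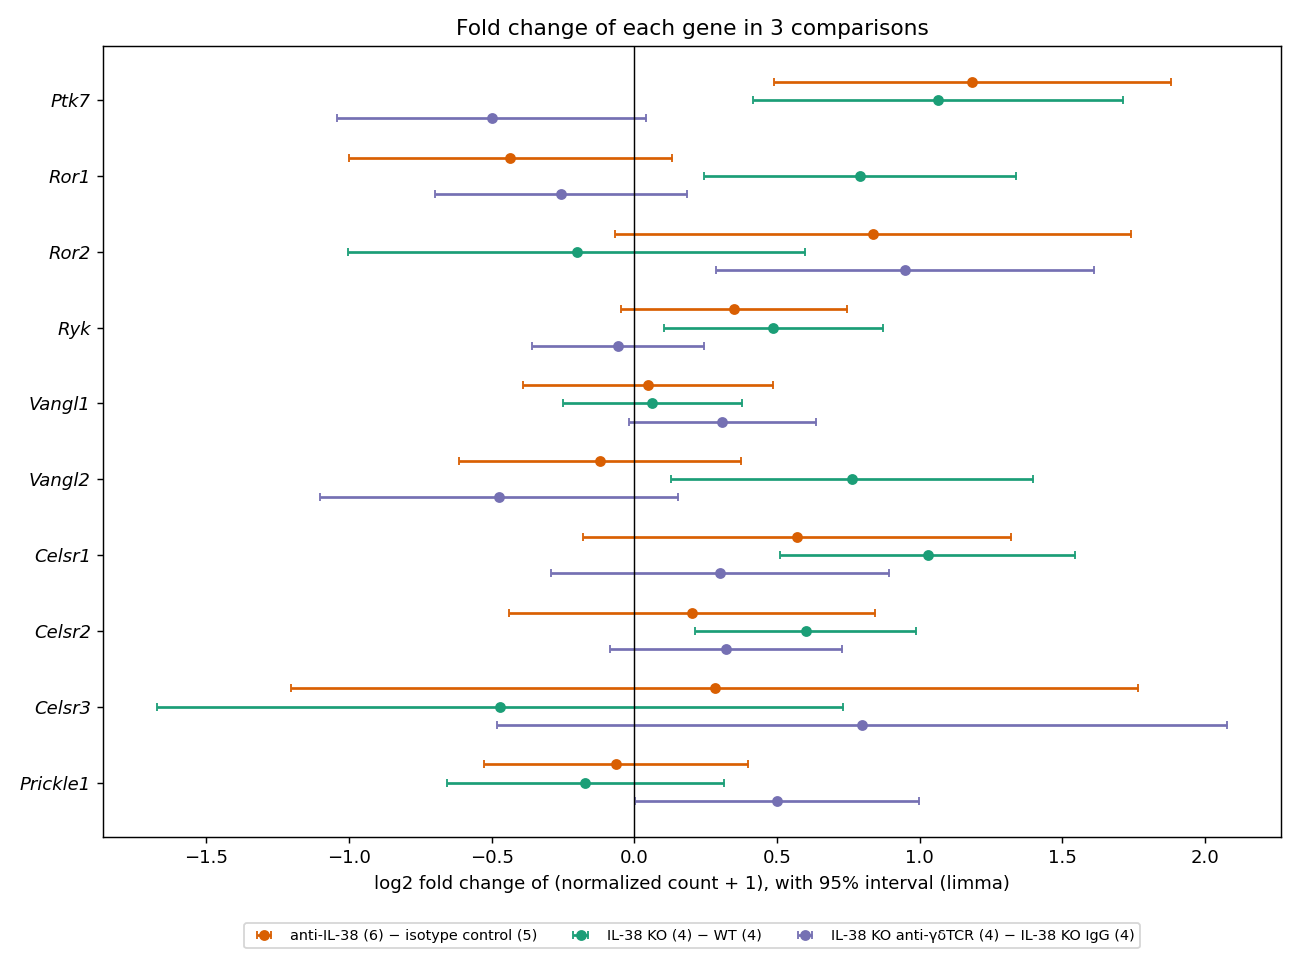
Log2 fold change of each gene in 3 comparisons, on log2(normalized count + 1), with its 95% interval from limma; the numbers in the legend are libraries, and the vertical line marks 0. For Ptk7 the antibody and knockout values are 1.19 and 1.06 and the blockade value is -0.50, and Ror1 is on opposite sides of 0 with antibody (-0.43) and knockout (0.79).

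Ror1, a Wnt5a receptor best known from embryonic tissue, was on opposite sides of its controls with the antibody and with the knockout, and neither value passed the test. Anti-IL-38 tumors ranged from 46.9 to 117 normalized counts around a mean of 82.8 ± 23.6 (SD, n = 6), and isotype control tumors held 117, 72.6, 164, 86.6 and 122. This gave a log2 fold change of -0.43 (SE 0.26, adjusted p = 0.554), and -0.28 without anti-IL-38 replicate 6. IL-38 KO tumors held 143, 133, 106 and 137 and WT tumors 63.7, 67.9, 58.2 and 119, so that 3 of 4 lay above every WT tumor. The difference on the log2 scale was 0.79 (SE 0.25, adjusted p = 0.285).

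The difference between the antibody and knockout effects on Ror1 was -1.23 (SE 0.38) in an interaction term over 19 libraries. Its unadjusted limma p was 0.00433 and its adjusted p 0.543, and 0.00612% of 16352 genes passed in this test. Vangl2 (-0.88, SE 0.39, adjusted p = 0.614) and Ror2 (1.04, SE 0.60, adjusted p = 0.721) followed, and none of the 9 passed. With γδ TCR blockade Ror1 was 83.1 ± 11.5 (SD, n = 4) against 99.3 ± 12.1 (SD, n = 4) normalized counts, a log2 fold change of -0.26 (adjusted p = 0.507).

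Ror2, the second Wnt5a receptor of the family, had few reads, 16 to 129 per library, and a wide spread with the antibody. Isotype control tumors held 26.4, 31.3, 21.4, 26.7 and 16.2 normalized counts, and anti-IL-38 tumors 30.8, 122, 18.5, 28.3, 62.0 and 53.2. On the log2 scale the difference was 0.84 (SE 0.42, adjusted p = 0.488), with 3 of 6 above all controls. The highest value, of anti-IL-38 replicate 2, was in the library with the highest sum of 8 basal and myoepithelial markers, 2058 CPM, and replicate 5, with 62.0, had the next highest, 1178 CPM. That sum was 98.0 to 491 CPM in the other anti-IL-38 tumors and 106 to 395 CPM in isotype control tumors. Without replicate 2 the fold change was 0.54.

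Ror2 was higher in all 4 tumors with γδ TCR blockade than in every IL-38 KO tumor with IgG. The values were 48.4, 46.9, 63.3 and 64.9 against 41.4, 22.5, 20.999 and 32.0 normalized counts. The log2 fold change was 0.95 (SE 0.30, adjusted p = 0.0975) and Ror2 was the only one of the 9 without overlap of the groups here, where 9.54% of all genes had none. The basal and myoepithelial sum was 254 to 715 CPM with blockade and 236 to 408 CPM in the controls, with all 8 markers detected in every library. Over the 23 libraries with group means removed, Ror2 correlated with that sum at r = 0.73, the highest value between any of the 10 genes and a marker list. The part of these cells in the result was not tested. Without IL-38 KO + IgG replicate 4 the fold change was 1.01, and against replicate 4 alone, the 1 control rich in pseudogene reads, it was 0.77. In IL-38 KO against WT tumors Ror2 was at -0.20 (SE 0.36, adjusted p = 0.846), and leaving out 1 library gave -0.50 to -0.03.

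Ryk, a Wnt receptor with a WIF domain, varied little, 2.85-fold between its lowest and highest library in CPM. IL-38 KO tumors held 2964, 2740, 2133 and 2558 normalized counts and WT tumors 1905, 1352, 2235 and 1991, so 3 of 4 lay above every WT tumor. This gave a log2 fold change of 0.49 (SE 0.17, adjusted p = 0.323). Anti-IL-38 tumors ranged from 1697 to 2700, all above the isotype control median, and the log2 fold change was 0.35 (SE 0.18, adjusted p = 0.509), and 0.20 without isotype control replicate 2. Under γδ TCR blockade it was -0.06 (95% interval -0.36 to 0.25). The sum of 9 luminal markers, with which Ryk correlated at r = 0.56 within groups, was 2510 to 4449 CPM in anti-IL-38 and 1712 to 3589 CPM in isotype control tumors.

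Vangl1, with Vangl2 the membrane core of the polarity complex, lay within narrow limits, 46.6 to 94.6 CPM over all 23 libraries. Its log2 fold changes were 0.05 with the antibody (95% interval -0.39 to 0.49), 0.06 with the knockout (-0.25 to 0.38) and 0.31 with γδ TCR blockade (-0.02 to 0.64). Vangl2 was 382, 509, 399 and 195 normalized counts in IL-38 KO tumors and 198, 175, 305 and 170 in WT tumors. The difference on the log2 scale was 0.76 (SE 0.29, adjusted p = 0.342). The low IL-38 KO value was that of replicate 4, and without this library the fold change was 1.04 (SE 0.22, adjusted p = 0.0930). With the antibody Vangl2 was 331 ± 101 (SD, n = 6) against 357 ± 92.7 (SD, n = 5), a log2 fold change of -0.12.

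Under γδ TCR blockade Vangl2 depended on the same library. The values were 251, 212, 174 and 150 normalized counts with anti-γδTCR and 287, 386, 308 and 152 with IgG, where 152 was replicate 4. On the log2 scale the difference was -0.48 (SE 0.28, adjusted p = 0.368). Without replicate 4 it was -0.75 (SE 0.21) with an adjusted p of 0.0381, and without replicate 2, the highest control, it was -0.30. The fit without replicate 4 sets libraries rich in pseudogene reads against controls that are not, and 2357 genes passed there. The blockade and the difference between libraries cannot be told apart in that fit. A term for the 5 libraries rich in pseudogene reads gave 0.34. That term sets the 4 blockade tumors against IL-38 KO + IgG replicate 4 alone, so this value rests on 1 control library. Over 18 alternatives the adjusted p ranged from 0.0381 to 0.843.

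Celsr1, one of the bridging cadherins, showed the most separated groups of the 9 in the comparison of genotypes. IL-38 KO tumors held 125, 216, 174 and 148 normalized counts and WT tumors 68.7, 62.2, 89.5 and 103. All 4 IL-38 KO tumors lay above all 4 WT tumors, where 7.06% of all genes had no overlap. The log2 fold change was 1.03 (SE 0.24, adjusted p = 0.210). DESeq2 gave 1.05 with an adjusted p of 0.0111, and over 17 alternatives the adjusted p ranged from 0.0111 to 0.523. The sum of 6 endothelial markers, with which Celsr1 correlated at r = 0.62 within groups, was 84.7 to 109 CPM in IL-38 KO and 74.7 to 115 CPM in WT tumors.

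With the antibody, Celsr1 split the isotype control tumors. They held 50.04, 66.2, 146, 186 and 54.3 normalized counts, and anti-IL-38 tumors 167, 140, 149, 151, 74.4 and 120. All 6 treated tumors lay above the control median but none above the highest control, and the log2 fold change was 0.57 (SE 0.35, adjusted p = 0.557), and 0.38 without isotype control replicate 1. With γδ TCR blockade it was 0.30 (SE 0.27, adjusted p = 0.565), with replicate 2 highest at 246, and 0.0771 without this library.

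Celsr2, a cadherin of the same family, was 1647, 2035, 1876 and 1227 normalized counts in IL-38 KO and 1009, 1009, 1353 and 1059 in WT tumors. This gave a log2 fold change of 0.60 (SE 0.18, adjusted p = 0.260), and 0.75 (adjusted p = 0.0923) without IL-38 KO + IgG replicate 4, the lowest of the 4. DESeq2 gave 0.62 with an adjusted p of 0.0495, the lowest of 17 alternatives, which reached 0.582. With the antibody the log2 fold change was 0.20 (SE 0.30, adjusted p = 0.821), leaving out 1 library gave 0.0642 to 0.38, and 2 isotype control tumors held 2202 and 2346 and the other 3 held 977 to 1117. Under γδ TCR blockade it was 0.32 (SE 0.18, adjusted p = 0.348), 0.18 without IL-38 KO + IgG replicate 4 and 0.73 against that 1 library alone.

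Celsr3, the neuronal form, had 1 to 18 reads per library. The 95% interval of its log2 fold change ran from -1.20 to 1.77 with the antibody, from -1.67 to 0.73 with the knockout and from -0.48 to 2.08 with the blockade, and a difference was not detectable at this depth.

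Prickle1, a cytoplasmic partner of Vangl proteins, was near 0 in both comparisons of IL-38 inhibition, with wide intervals. Its log2 fold change was -0.06 with the antibody (95% interval -0.53 to 0.40) and -0.17 with the knockout (-0.66 to 0.31). With γδ TCR blockade it was 421, 443, 313 and 431 normalized counts against 335, 363, 183 and 281. The difference on the log2 scale was 0.50 (SE 0.22, adjusted p = 0.228), and 3 of 4 lay above all controls. Without IL-38 KO + IgG replicate 3, the lowest control, it was 0.30. The Prickle1 level was lowest with anti-IL-38 (23.2 ± 7.08 CPM, SD, n = 6) and close to that with isotype control (23.6 ± 5.45 CPM, SD, n = 5). It was highest in IL-38 KO + anti-γδTCR tumors (41.2 ± 6.25 CPM, SD, n = 4).

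On the common scale over 23 libraries, the other genes did not share the order of Ptk7. Ryk was highest in IL-38 KO + IgG (211 ± 29.9 CPM, SD, n = 4) and lowest in isotype control tumors (133 ± 38.4, SD, n = 5). Vangl2 went from 30.1 ± 10.7 CPM in IL-38 KO + IgG to 17.1 ± 5.18 in WT + IgG tumors (SD, n = 4 each), and Ror1 from 10.5 ± 1.38 to 6.22 ± 2.34 CPM between the same groups. Celsr1, Celsr2 and Ror2 were highest in IL-38 KO + anti-γδTCR tumors, at 16.5 ± 6.05, 165 ± 28.1 and 5.73 ± 0.978 CPM (SD, n = 4). Celsr1 and Celsr2 were lowest in WT + IgG tumors, at 6.51 ± 1.59 and 89.1 ± 13.9 CPM (SD, n = 4), and Ror2 in isotype control tumors, at 1.92 ± 0.454 CPM (SD, n = 5). For all 10 genes, each group overlapped its neighbor in the order of means.

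Within groups, 4 of the core genes varied together. With group means removed over 23 libraries, Pearson r was 0.67 for Vangl1 and Celsr2, 0.66 for Vangl2 and Celsr2, 0.65 for Celsr1 and Celsr2, 0.59 for Vangl1 and Vangl2 and 0.56 for Vangl1 and Celsr1. Vangl2 and Celsr1 were less alike, at 0.29. Ptk7 was nearest to Celsr2 (0.56) and Vangl1 (0.45), and Prickle1 ran against Ptk7 (-0.54), Vangl1 (-0.50) and Celsr2 (-0.50). Among the 3 receptors, Ryk was at 0.47 to Ror1 and 0.42 to Ror2, and Ror1 was at -0.23 to Ror2. To other genes, Ryk was at 0.37 to Ptk7 and 0.33 to Vangl1, Ror1 at -0.39 to Vangl2 and Ror2 at -0.07 to Celsr2. The value of greatest size was that of Ryk and Celsr3, at -0.75, where Celsr3 had 1 to 18 reads per library. Ptk7 had no r above 0.33 with any of 8 marker lists. These values share libraries and depth and are a description.

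**Figure D3:**
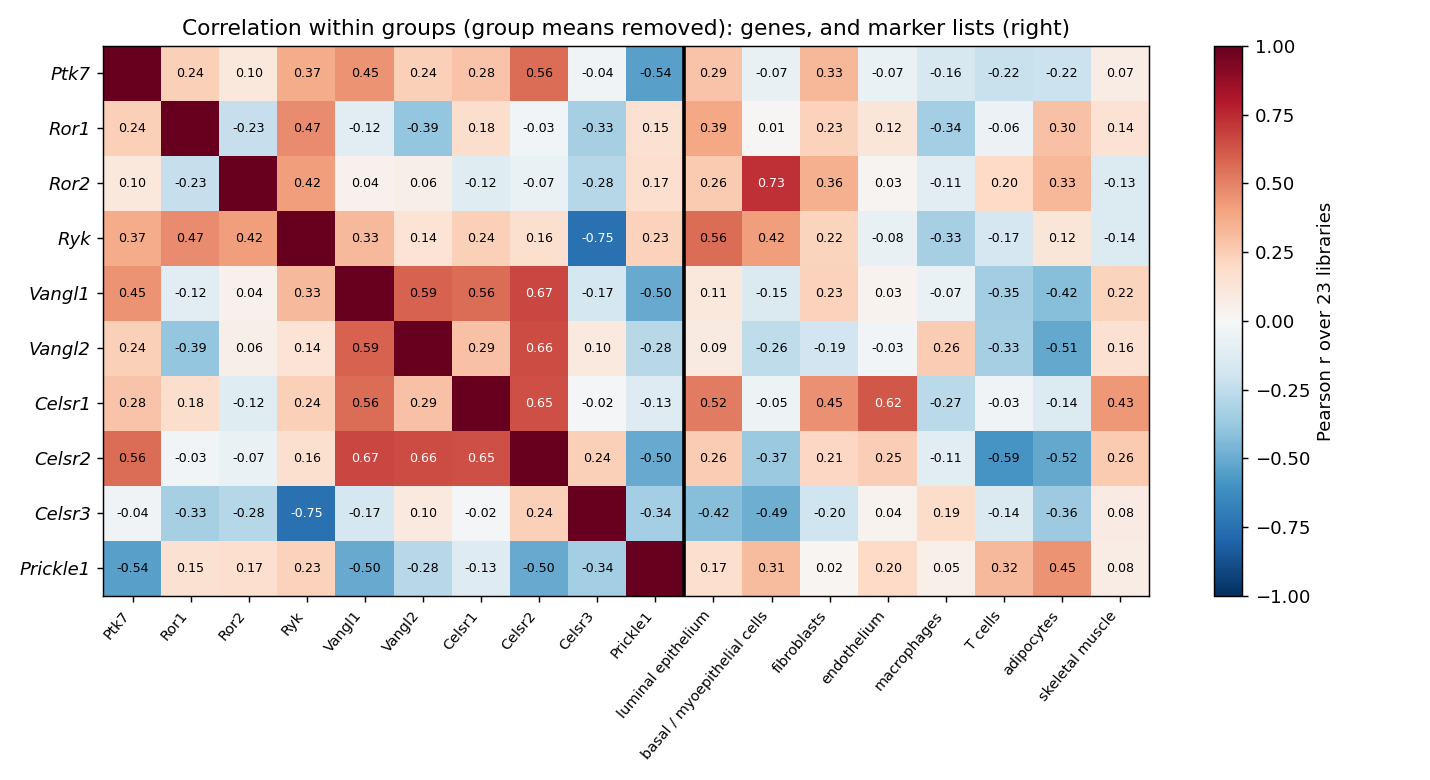
Pearson r over 23 libraries between the 10 genes, and to the right of the black line between each gene and the summed CPM of 8 marker lists, all on log2 values with group means removed; red is positive and blue negative. Vangl1, Vangl2, Celsr1 and Celsr2 form a block of 0.29 to 0.67, Ptk7 and Prickle1 are at -0.54, and Ror2 stands at 0.73 with basal and myoepithelial markers.

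Other genes of the pathway were counted by list. Of 24 further planar polarity core and effector genes, 23 were tested in each comparison and none passed an adjusted p of 0.05 in limma. Their median log2 fold change was 0.01 with the antibody, 0.07 with the knockout and 0.21 with γδ TCR blockade. At an unadjusted p under 0.05, 1 of 23 was higher with the antibody, against 5.61% of all genes, and 3 of 23 with the knockout, against 6.73%. With blockade 2 of 23 were higher, against 12.7%, and 1 was lower, against 9%. The Frizzled receptor genes of this pathway had the smallest p in both experiments of IL-38 inhibition. Fzd3 was at 0.50 (SE 0.20, adjusted p = 0.433) with the antibody and 0.48 (SE 0.17, adjusted p = 0.324) with the knockout. Fzd6 was at 0.61 in each (adjusted p = 0.529 and 0.285). The Dishevelled genes, whose products relay the signal in the cytoplasm, lay between -0.21 and 0.28: Dvl1 at 0.21 and 0.04, Dvl2 at -0.08 and -0.21, and Dvl3 at 0.01 and 0.28. Scrib, a scaffold partner of Vangl2, was at -0.29 with the antibody and 0.31 with the knockout. Prickle2 was at 0.21 and 0.14 and Prickle3 at -0.14 and -0.30, and Prickle4 did not pass the filter.

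Among 19 Wnt ligand genes, 7 were tested with the antibody and 8 with the knockout, and none passed. Wnt4, a ligand of mammary branching, was 164, 383, 165, 231, 211 and 123 normalized counts with anti-IL-38 and 117, 81.8, 25.8, 53.4 and 6.67 with isotype control. All 6 lay above all 5 controls, where 1.04% of all genes had no overlap. The log2 fold change was 2.30 (SE 0.57, adjusted p = 0.373). In IL-38 KO tumors Wnt4 was at -0.59 (SE 0.33, adjusted p = 0.484). Under γδ TCR blockade it was 69.3, 256, 110 and 71.5 against 58.3, 54.6, 46.7 and 32.0, at 1.20 (SE 0.41, adjusted p = 0.118). All 4 lay above all controls, where 9.54% of all genes had no overlap. Wnt5a, the ligand of Ror1, Ror2 and Ryk, was at 1.06 (SE 0.52, adjusted p = 0.482) with the antibody and 0.49 (SE 0.19, adjusted p = 0.352) with the knockout. Isotype control replicate 5 held 45.7 normalized counts of Wnt5a, and the other isotype control tumors 185 to 528. Wnt5b was at 0.53 and -0.10. Wnt11 had at most 11 reads and was tested with the knockout only, at 0.31.

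The β-catenin branch, which shares Frizzled receptors with this pathway, was 10 of 12 genes tested. In IL-38 KO tumors all 10 were higher than in WT, where 8381 of all 16563 genes were. Their median log2 fold change was 0.56. At an unadjusted limma p under 0.05, 3 of 10 were higher, against 6.73% of all genes, and none passed. Znrf3, a membrane ligase that removes Frizzled receptors, was 325, 342, 350 and 248 normalized counts in IL-38 KO and 156, 114, 220 and 196 in WT tumors, at 0.91 (SE 0.22, adjusted p = 0.210). The co-receptor genes Lrp5 and Lrp6 were at 0.93 (SE 0.28, adjusted p = 0.272) and 0.73 (adjusted p = 0.230). The feedback gene Axin2 was at 0.84 (SE 0.43, adjusted p = 0.450). With the antibody 7 of 10 were higher, where 8038 of all 16002 genes were, and the list median was 0.32. Lrp5 was at 0.76 (SE 0.27, adjusted p = 0.425) and Lrp6 at 0.36. With γδ TCR blockade 9 of 10 were lower, where 7922 of all 16481 genes were, and the list median was -0.24. The knockout and blockade comparisons use the same IL-38 KO + IgG tumors, so high values in these tumors move the comparisons in opposite directions. Znrf3 was at -0.69 (SE 0.16, adjusted p = 0.0657). All 4 tumors lay below all controls, where 9.54% of all genes had no overlap. The lowest control, at 194, was IL-38 KO + IgG replicate 4, which is rich in pseudogene reads like the blockade libraries. The blockade and this difference between libraries cannot be told apart.

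In the Fat and Dachsous system, a second set of polarity cadherins, all 7 genes were tested and none passed. Fat1 was 932, 1008, 1021 and 812 normalized counts in IL-38 KO and 521, 284, 589 and 596 in WT tumors, at 0.98 (SE 0.22, adjusted p = 0.210). It was at 0.45 with the antibody (adjusted p = 0.565) and -0.49 with blockade (adjusted p = 0.119). With blockade all 4 tumors lay below all controls, where 9.54% of all genes had no overlap. These controls are the IL-38 KO tumors of the knockout comparison, and the lowest of them, at 636, was replicate 4. The list medians were -0.09, 0.03 and 0.25 with antibody, knockout and blockade.

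Among 13 genes for cleavage of Ptk7 and for secreted or surface modulators, 10 were tested with the antibody and 12 with the knockout and blockade, with medians of 0.17, 0.21 and 0.21 and none past the threshold. The protease genes Mmp14 and Adam17, whose products cut Ptk7 at the membrane, were at 0.12 and -0.06 with the antibody and 0.23 and 0.09 with the knockout. Their adjusted p-values were 0.831 and 0.859 with the antibody and 0.619 and 0.814 with the knockout. Wif1, a secreted Wnt inhibitor, was at 1.51 (SE 0.56, adjusted p = 0.335) with the knockout, and Dkk2 at 0.97 (SE 0.51, adjusted p = 0.504) with the antibody.

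Another 2 genes of these lists followed the 5 libraries rich in pseudogene reads. Gpc4, a glypican that binds Wnt ligands, was 782, 876, 1151 and 763 normalized counts with γδ TCR blockade and 206, 284, 178 and 684 with IgG. On the log2 scale the difference was 1.60 (SE 0.37, adjusted p = 0.0657). The small GTPase gene Rac1 was 7901, 7724, 10367 and 6700 with blockade and 1787, 2177, 2361 and 7739 with IgG, at 1.47 (SE 0.40, adjusted p = 0.0699). In both, the last control value is IL-38 KO + IgG replicate 4.

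**Figure D4:**
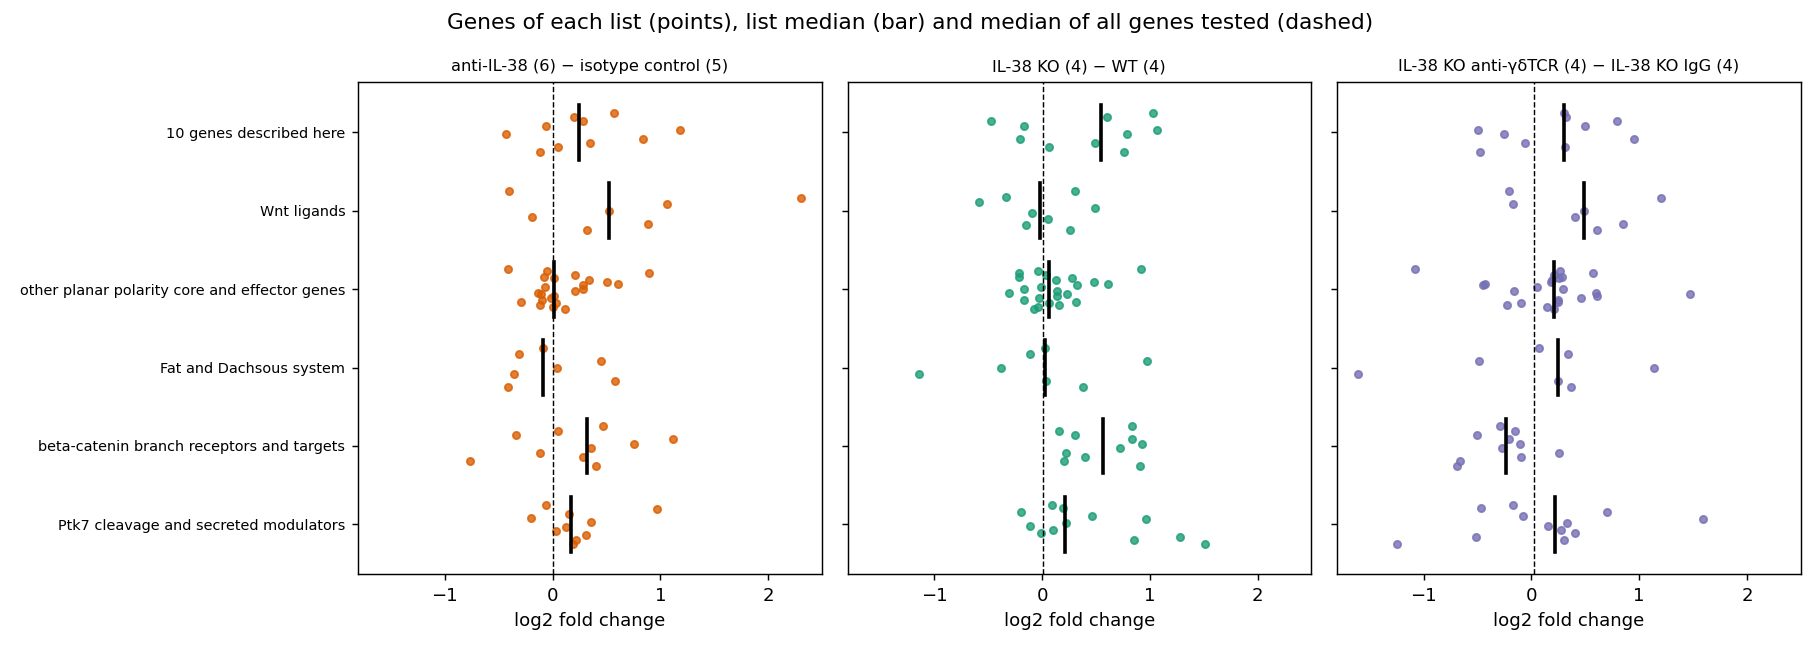
Log2 fold changes of the genes of each list in 3 comparisons, 1 point a gene, with the list median as a black bar and the median of all genes tested as a dashed line; the 10 genes described here include Ptk7. In IL-38 KO against WT tumors all 10 tested genes of the β-catenin branch lie to the right of 0 around a median of 0.56, and the other planar polarity genes lie around 0.07.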

How the data were processed

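Gene expression was measured in 23 libraries of PyMT tumors, in 5 groups. Per the labels and the study's methods, the libraries were made from the 3′ ends of RNA. The submitters' processing notes name STAR, HTSeq, DESeq2 and GRCm39, without versions or roles. The deposited signal is a normalized count: the authors divided reads by 1 size factor per library, separately for a table of 19 libraries and one of 8. The 4 libraries of IL-38 KO + IgG are in both, with identical reads. Whole reads were recovered for 100% of values within 0.0001%, although in 1 library, WT + IgG replicate 1, they cannot be told from rounded values. Symbols came from a table of gene names, which held 47224 of the 47643 identifiers.

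Tests were run in limma 3.58.1 (R 4.3.3, two-sided, moderated with a trend) on log2 values after a pseudocount of 1, for genes averaging 5 or more normalized counts. P-values were adjusted by Benjamini-Hochberg over all genes tested, with a threshold of 0.05. A fold change on this scale understates that of low genes. Each fit held the libraries of its own comparison, and the interaction used 19 libraries. CPM are recovered reads scaled with TMM in edgeR 4.0.16 and were not tested across the tables. The genes described, the lists and the comparisons were chosen with earlier results of these data known. Beside the 10 genes, the text names a set of pathway genes whatever their values, the gene with the smallest p of each list, and the 5 genes most like Ptk7 among those with a mean of at least 50. Lrp5 is also given with the knockout, where that rule does not give it. Not all genes of the set are given in every comparison, and Axin2 is given with the knockout only. Alternatives were pseudocounts of 0.5 and 5, no filter or a mean of at least 20, TMM, edgeR's quasi-likelihood test and DESeq2 1.42.0 on the reads, a replicate block, an experiment term, and leaving out each library. A term for libraries rich in pseudogene reads, which leaves 1 control library in the blockade comparison, was added after the data were seen. The labels do not say whether libraries are separate mice, so p-values measure the spread between libraries. No 2 libraries of a group were alike within sampling noise (chi-square per degree of freedom 17.1 to 138). Read counts without molecular identifiers are not independent molecules. The fits were tested on simulated counts in which 200 genes, with a mean of at least 50 reads, were changed by a log2 fold of 1.5 up or down. All genes had the same dispersion, and no library stood apart. In the layout of IL-38 KO against WT, limma recovered 158 of them with 6 false calls and edgeR 164 with 10. DESeq2 recovered 176 with 21 false calls.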

Additional observations from a re-analysis of the deposited data

Results flagged for a closer look

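Ror1 in WT + IgG replicate 4 stood apart from its group, at 9.71 CPM, where the nearest of the other 3 WT tumors was at 5.34 CPM. The gap was 0.874 of the range of the group, above Dixon's 95% critical value for 4 libraries. This was 1 of 50 groups of values examined over the 10 genes, and chance marks about 1 in 20. Without this library the log2 fold change of Ror1 in IL-38 KO against WT tumors was 1.02, and the antibody effect minus the knockout effect was -1.45.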

How the results depend on the processing

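Ptk7 kept its direction in all 84 refits of its 4 fold changes. These refits reuse libraries in which Ptk7 was chosen as high, so they do not test it. Of 1078 refitted values of the 10 genes, 1041 counted as unchanged, 34 changed direction and 3 passed the threshold. Unchanged meant the same direction and side of the threshold. For the 84 of Ptk7, which have no p, it meant the same direction and a shift below the SD within groups. Counts over all genes depended on the tool and on single libraries. With IL-38 inhibited, where limma called 0 genes, edgeR called 1, DESeq2 70 and the experiment term 1, and leaving out 1 library gave 0 to 23, the highest without isotype control replicate 3. With the antibody, DESeq2 called 75 and the replicate block 1, against 0, and leaving out 1 library gave 0 to 6, again without isotype control replicate 3. With the knockout, limma called 1, edgeR 0, DESeq2 298 and the replicate block 0, and leaving out 1 library gave 0 to 7. With γδ TCR blockade, DESeq2 called 1030 against 0, and leaving out 1 library gave 0 to 2357, the highest without IL-38 KO + IgG replicate 4. In that fit 1 of the 9 genes, Vangl2, was among the 2357, where 16481 genes were tested with all libraries. It compares blockade libraries, all rich in pseudogene reads, with controls that are not. DESeq2 called 2 of the 9 in IL-38 KO tumors. The cause was not tested.

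Replicate numbers did not pair the libraries, as same-numbered libraries correlated at -0.17 to 0.07, and the replicate block changed no call among the 9 genes. Under the block with the antibody, Vangl1 turned to -0.0363 and Prickle1 to 0.0297. The pseudogene term turned Vangl2 under γδ TCR blockade to 0.34, a value that compares the 4 blockade libraries with IL-38 KO + IgG replicate 4 only, and TMM turned the interaction of Vangl1 to 0.0038.

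Leaving out 1 library turned small values. The ranges were, with IL-38 inhibited, -0.00035 to 0.19 for Ror1 and -0.29 to 0.17 for Celsr3, with the antibody -0.0840 to 0.16 for Vangl1, -0.17 to 0.68 for Celsr3 and -0.19 to 0.0320 for Prickle1, with the knockout -0.0180 to 0.13 for Vangl1 and -0.30 to 0.0383 for Prickle1, and with blockade -0.14 to 0.0015 for Ryk. For the interaction they were -0.29 to 0.0091 for Ryk, -0.15 to 0.10 for Vangl1 and -0.10 to 0.23 for Prickle1. Depth limits Celsr3, with at most 18 reads, and Ror2, with at most 129.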
